A study of Mus musculus with 6 samples.

Results

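SR proteins and hnRNPs are the 2 large families of RNA-binding proteins that act on nearly every spliced transcript, and their genes were examined in quadriceps muscle of 3 wild-type (WT) and 3 HSALR mouse samples. HSALR mice carry a human skeletal actin transgene whose CTG expansion holds about 220 repeats. The promoter of that gene drives it in skeletal muscle, and the CUG repeat RNA sequesters MBNL splicing factors, which makes the line a model of myotonic dystrophy type 1. The mice were aged 12 weeks, and total RNA was sequenced after removal of ribosomal RNA. The members are the protein-coding genes whose symbols begin with Srsf followed by a number or with Hnrnp and whose counts averaged at least 10 over the 6 libraries. The symbol rule found 32 genes among the 53947 in the files and 30 of them passed, 10 SR and 20 hnRNP genes. The other two, Srsf12 and Srsf19, were at 0 in every library, where 3 counts correspond to 0.2 to 0.262 CPM, the count after each library is scaled to one size. The labels number the samples but do not tie them to separate animals, and the spread behind every p-value below may thus be partly technical.

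SR proteins pair RNA recognition motifs with a tail rich in arginine and serine that is phosphorylated and dephosphorylated in each splicing cycle. They commonly bind enhancer sequences in exons and help the spliceosome to include them. hnRNPs coat nascent transcripts, often oppose the inclusion of exons, and also act in RNA export, stability and translation. Many genes of both families limit their own level by splicing in an exon or keeping an intron that sends the transcript to nonsense-mediated decay. In muscle with expanded CUG repeats the balance of these factors with MBNL proteins bears on which splice form is made, and hnRNP H is known to bind CUG repeat RNA.

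Of the 30 genes, Hnrnpa2b1 and Hnrnpd passed the test between the groups (6.67%, beside 11.8% of all genes tested), and none of the 10 SR genes did. Hnrnpa2b1 and Hnrnpd were each called in only 9 of 20 alternative fits. Both had lower read counts in HSALR, Hnrnpa2b1 by 0.45 and Hnrnpd by 0.74 on the log2 scale. The direction of Hnrnpd turned, to a log2 fold change of 0.13 without a call (adjusted p = 0.758 in edgeR), when effective length entered the model. Each gene is known for splice forms that differ by cassette exons, so those exons are shown, as read from the minus strand of GRCm39 at the coordinates of GENCODE M39. The exon of Hnrnpa2b1 that is carried by the B1 form and skipped in the A2 form spans 36 bases at chr6:51444371-51444406, and a downstream exon of the glycine-rich region spans 120 bases at chr6:51441408-51441527. The exons of Hnrnpd, by which the forms of AUF1 differ, span 57 bases at chr5:100124393-100124449 and 147 bases at chr5:100111590-100111736.
Hnrnpa2b1, B1 exon: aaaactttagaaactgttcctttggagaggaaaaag
Hnrnpa2b1, downstream exon: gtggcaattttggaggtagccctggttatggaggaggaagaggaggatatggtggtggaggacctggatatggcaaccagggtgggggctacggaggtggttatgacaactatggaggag
Hnrnpd, upstream exon: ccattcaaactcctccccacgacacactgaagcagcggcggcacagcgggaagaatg
Hnrnpd, downstream exon: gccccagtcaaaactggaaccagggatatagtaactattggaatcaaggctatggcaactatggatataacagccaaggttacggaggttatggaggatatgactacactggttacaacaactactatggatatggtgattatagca
In the protein-coding transcripts of GENCODE M39 the B1 exon is present in 2 and skipped in 3, and the downstream exon of Hnrnpa2b1 is present in 3 and skipped in 2. The upstream exon of Hnrnpd is present in 11 transcripts and skipped in 10, and its downstream exon is present in 10 and skipped in 8. The deposited values are sums per gene, so the inclusion of these exons was not measured here.

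The libraries held between 11468959 and 15023710 counts, and the members' own counts ranged from 29 for Hnrnph3 to 1591 for the most abundant member in a library. 7SL and 7SK, abundant non-coding RNAs, took 14.1% to 15.5% of the counts in WT and 43.9%, 18.8% and 24.0% in HSALR replicates 1, 2 and 3, so that the protein-coding share was 80.4% to 81.6% in WT and 51.7%, 76.5% and 71.7% in HSALR. The muscle identity of the tissue was borne out by the 10 myofibre markers, whose summed level was 131321 to 145928 CPM in WT. In HSALR the sum was lower in every library, at 72097, 126151 and 103357 CPM in replicates 1, 2 and 3, with 9 log2 fold changes negative and 1 gene called lower. Acta1, the mouse skeletal actin gene, is among these markers, at 25880 to 28135 CPM in WT and 16440 to 31795 CPM in HSALR. The part of reads from the human transgene in its HSALR counts was not tested. Calls among the markers stand beside 11.8% of all genes tested, of whose 13576 log2 fold changes 7180 were positive. All 10 macrophage markers had positive log2 fold changes and 5 of them rose. Their summed level was 160 to 182 CPM in WT and 702, 232 and 329 CPM in HSALR replicates 1, 2 and 3. Summed fibroblast markers were at 1599 to 1807 CPM in WT and 6492, 2005 and 2886 CPM in HSALR replicates 1, 2 and 3, with 1 of 8 called. HSALR replicate 1, the library with the most 7SL and 7SK, had the highest macrophage and fibroblast sums and the lowest myofibre sum. Summed endothelial markers (180 to 203 CPM in WT, 148 to 230 CPM in HSALR) and satellite cell markers (25.2 to 30.3 and 28.4 to 45.2 CPM) overlapped between the groups. Of the 8 endothelial markers 1, Flt1, was called lower. Proliferating cell markers stayed under 7 CPM in sum, at 1.84 to 2.68 CPM in WT and 2.90 to 6.28 CPM in HSALR. No marker on these lists was at 0 in every library. The part of these RNAs and cell types in the members' values was not tested. In bulk samples, fewer cells of a type and less RNA per cell cannot be told apart.

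In levels corrected for transcript length (TPM), the SR genes of WT muscle spanned from Srsf5 to Srsf4. Srsf5, an enhancer-binding SR protein with a pair of RNA recognition motifs, was at 22.7, 23.9 and 20.1 TPM in the WT libraries and at 11.3, 23.5 and 19.5 TPM in HSALR. Srsf4, the SR protein with the longest arginine and serine tail, was at 2.73, 2.34 and 3.27 TPM in WT and at 1.32, 2.30 and 2.45 TPM in HSALR. Between these came, in falling order of mean WT TPM, Srsf2 (15.8), Srsf1 (15.4), Srsf3 (13.5), Srsf6 (10.9), Srsf7 (10.4), Srsf10 (7.67), Srsf11 (6.94) and Srsf9 (3.56). The ranges over the WT libraries overlapped for 7 of the 9 pairs of neighbours in this order, and were apart between Srsf5 and Srsf2 and between Srsf11 and Srsf9.

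Among the hnRNP genes the highest level belonged to Hnrnpk, whose protein binds C-rich RNA and DNA through KH domains. It was at 51.3, 48.2 and 48.8 TPM in WT and at 22.9, 43.8 and 37.6 TPM in HSALR. Hnrnpa2b1 followed with a mean of 31.4 TPM in WT, apart from Hnrnpk above it and from Hnrnph1 (23.2 TPM) below it. The lowest was Hnrnph3, a small member of the F/H group, at 1.97, 2.50 and 1.1 TPM in WT and 0.49, 1.14 and 1.04 TPM in HSALR. Hnrnpd stood near the low end with a mean of 4.17 TPM, 17th of the 20. Neighbours overlapped over the WT libraries in 13 of 19 pairs. The median member was at 11.8 TPM in WT, against 2.78 TPM for all genes tested.

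**Figure D1:**
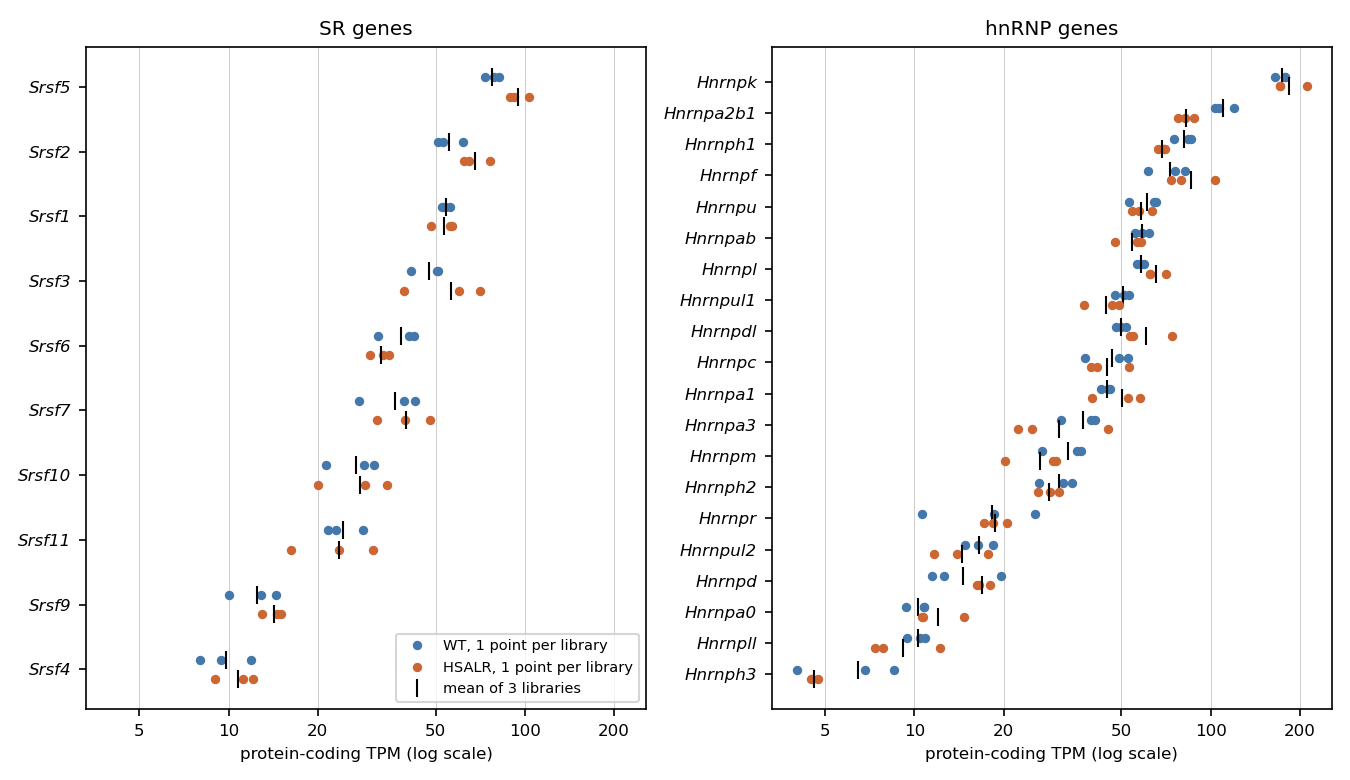
Level of each SR gene (left) and hnRNP gene (right) in each library, in TPM rescaled to the same total over protein-coding genes in every library (protein-coding TPM) on a log scale, with WT in blue, HSALR in orange and black bars at the mean of 3 libraries. Genes are ordered by their mean WT TPM, from Srsf5 to Srsf4 and from Hnrnpk to Hnrnph3. The HSALR points lie wholly below WT for Hnrnpa2b1 (77.6 to 88.0 against 104 to 120) and Hnrnph1 (66.3 to 70.1 against 75.0 to 85.5). They lie wholly above WT for Srsf2, Srsf5 (88.9 to 103 against 73.3 to 81.6), Hnrnpl and Hnrnpdl. The share of all genes apart on this scale was not counted.

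Whether either family as a whole was higher or lower depended on the scale. As a share of all counts the SR genes summed to 0.0260% to 0.0302% in WT and 0.0269% to 0.0312% in HSALR, and the hnRNP genes to 0.0799% to 0.0864% and 0.0745% to 0.0850%, so the groups overlapped. On CPM scaled by TMM factors the SR sum also overlapped, at 274 to 300 CPM in WT and 277 to 296 CPM in HSALR. The hnRNP sum on that scale was 844, 860 and 852 CPM in WT and 813, 806 and 709 CPM in HSALR, every HSALR library below every WT library.

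TPM gave lower sums in HSALR for the hnRNP genes, at 270 to 298 TPM in WT and 116, 237 and 194 TPM in the HSALR replicates. The lowest of these, HSALR replicate 1, was also the library with the largest 7SL and 7SK share. For the SR genes the summed TPM was 102 to 118 in WT and 50.7, 103 and 86.5 in HSALR. TPM was also rescaled so that the protein-coding genes of each library had the same total, here called protein-coding TPM. On that scale the hnRNP sums were 949 to 1018 in WT and 881 to 1069 in HSALR and the SR sums 353 to 404 and 394 to 466, and the groups overlapped for both families. As a share of protein-coding counts both sums were higher in every HSALR library, at 0.0318% to 0.0370% in WT and 0.0408% to 0.0520% in HSALR for the SR genes and at 0.0978% to 0.106% and 0.111% to 0.144% for the hnRNP genes. No direction is therefore given for either family as a whole.

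**Figure D2:**
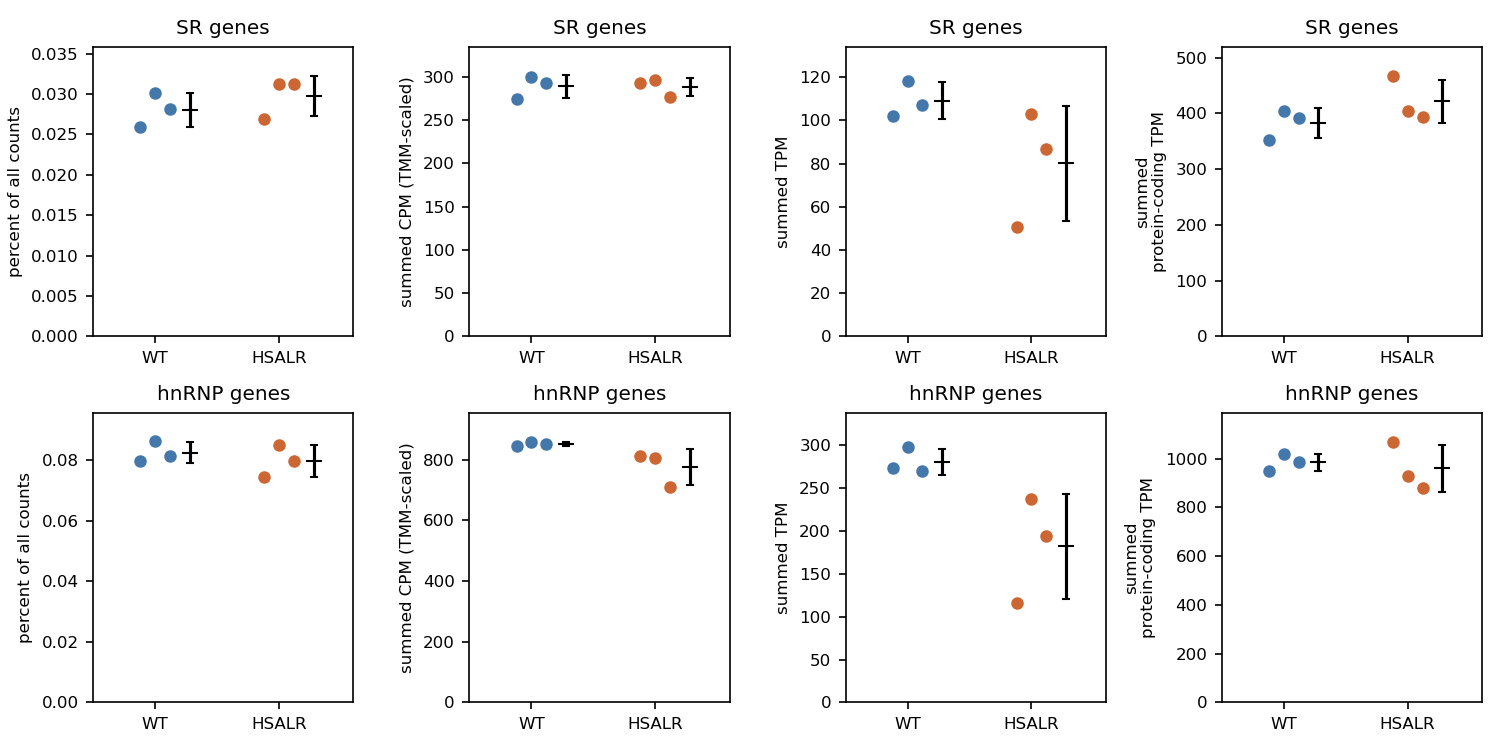
Summed level of the 10 SR genes (top) and the 20 hnRNP genes (bottom) in each library on 4 scales, all starting at 0: percent of all counts, CPM scaled by TMM factors, TPM, and protein-coding TPM. Points are libraries and bars the mean ± SD of 3, and the groups are apart only for the hnRNP genes on the CPM and TPM scales.

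The test between the groups was edgeR's quasi-likelihood F test over 13576 genes, with p-values adjusted over all of them. It called 2 of the 30 members (6.67%), beside 11.8% of all genes tested. Both calls were toward lower levels in HSALR, a direction taken by 7.48% of all genes tested, and 0 members were called higher, beside 4.28% of all genes. At an unadjusted p under 0.05 the count was 3 of 30, the third being Hnrnpa3, beside 4326 of the 13576 genes tested. Of the 10 SR genes edgeR called 0, with 0 at an unadjusted p under 0.05, and DESeq2, limma-voom and every other setting tried also called 0. The members' median log2 fold change was -0.19 (-0.06 for SR and -0.23 for hnRNP genes), against 0.04 over all genes tested. Of the 30 members 20 were negative, beside 6396 of the 13576 genes tested.

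Differences were small across both families. The median absolute log2 fold change was 0.20 for the members and 0.36 for all genes tested. The 95% interval of the fold change stayed within 2-fold either way for 29 of the 30 members, the exception being Hnrnpd. Of all genes tested 55.7% did so. The interval stayed within 1.5-fold for 24 members, among them all 10 SR genes, beside 20.7% of all genes tested. These intervals take the TMM scale as given. The median SE of the log2 fold change was lower for the members than for all genes tested, and their median TPM in WT was higher. The part of this precision in the members' smaller fold changes was not tested. In 12 of the 30 members (40.0%) the 3 HSALR libraries did not overlap the WT libraries in CPM, beside 37.8% of all genes tested.

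**Figure D3:**
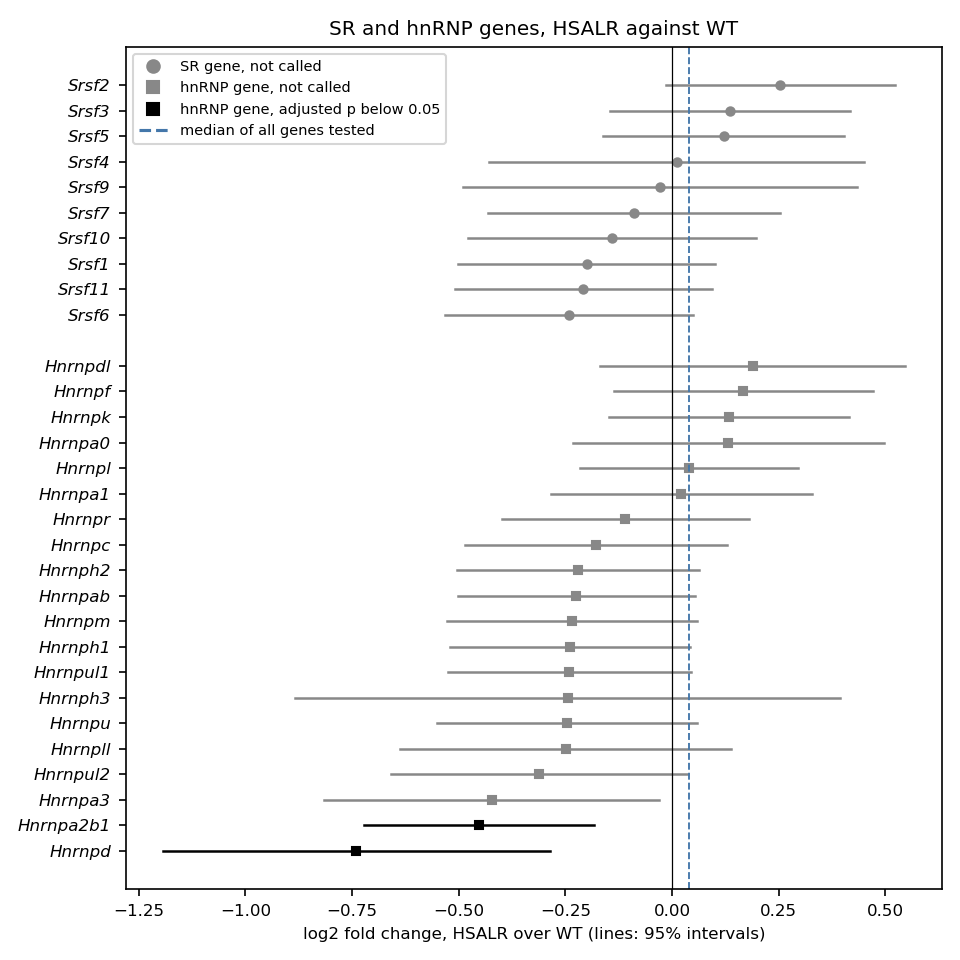
Log2 fold change (HSALR over WT) of each member with its 95% interval from the edgeR fit, SR genes as circles above and hnRNP genes as squares below. The 2 called genes, Hnrnpd and Hnrnpa2b1, are in black at the bottom, the intervals of all other members except Hnrnpa3 include 0, and the dashed line marks the median of all genes tested at 0.04.

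The A/B and D group holds the proteins with a pair of RNA recognition motifs and a glycine-rich tail. Hnrnpa2b1, which encodes hnRNP A2 and B1, was at 72.9, 78.5 and 71.0 CPM in WT and 54.6, 56.1 and 51.9 CPM in HSALR. All HSALR libraries lay below all WT libraries, with a narrow spread in each group. The fold was 0.73 (95% interval 0.61 to 0.88), a log2 fold change of -0.45 ± 0.12 (SE) with an adjusted p of 0.0425 in edgeR. In protein-coding TPM it was also apart, at 104, 120 and 107 in WT and 88.0, 77.6 and 81.8 in HSALR. Its reads were assigned whole in every library.

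Hnrnpd encodes AUF1, which binds AU-rich elements and bears on the stability of the transcripts that carry them. It was at 15.8, 16.1 and 13.3 CPM in WT and 10.9, 9.44 and 6.78 CPM in HSALR, again with no overlap. The fold was 0.60 (0.44 to 0.82), a log2 fold change of -0.74 ± 0.20 with an adjusted p of 0.0462 in edgeR. These values rest on 179 to 243 counts per WT library and 101 to 117 per HSALR library.

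Neither call held when a WT library was left out. Without WT replicate 1, 2 or 3 the adjusted p of Hnrnpa2b1 was 0.162, 0.169 and 0.134 and that of Hnrnpd 0.169, 0.154 and 0.107, and without HSALR replicate 3 the values were 0.117 and 0.110. In these 4 fits the calls over all genes numbered 166 to 217, against 1597 with every library. Without HSALR replicate 1, the library with the most 7SL and 7SK, both stayed called (0.0306 and 0.0128), and Hnrnpa3 joined them at 0.0157. Without HSALR replicate 2 both stayed called too (adjusted p = 0.0194 and 0.0447 in edgeR). The log2 fold changes ranged from -0.48 to -0.42 for Hnrnpa2b1 and from -0.89 to -0.57 for Hnrnpd over these fits. When the share of 7SL and 7SK entered the model, Hnrnpa2b1 had an adjusted p of 0.0803 and Hnrnpd of 0.0446.

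The call on Hnrnpd did not hold on scales that divide by length. Its mean transcript length, weighted by the estimated abundance of each transcript, was 2770, 1935 and 2595 bases in WT and 1599, 1356 and 1091 bases in HSALR, with no overlap. The length difference itself was not called (adjusted p = 0.455 in limma). In protein-coding TPM, which divides by this length, Hnrnpd was at 12.6, 19.6 and 11.4 in WT and 18.0, 16.5 and 16.3 in HSALR, and the groups overlapped. With effective length as an offset in the count model the log2 fold change was 0.13 (adjusted p = 0.758). The part of length in the read difference was not tested. The same offset left Hnrnpa2b1 at -0.52 with an adjusted p of 0.0529.

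Hnrnpa3 encodes a close relative of hnRNP A1 and A2. It was at 51.1, 44.2 and 47.8 CPM in WT and 44.5, 34.3 and 28.1 CPM in HSALR. HSALR replicate 1 lay within the WT range and the other two below it, and the log2 fold change was -0.42 ± 0.17 with an adjusted p of 0.132. In all 6 libraries part of its reads were divided between genes of similar sequence, so its level is less certain than that of Hnrnpa2b1. The same holds for Hnrnpa1, which encodes the best-studied repressor of exon inclusion in the group. Hnrnpa1 was at 31.7 to 34.2 CPM in WT and 28.7 to 36.5 CPM in HSALR, a log2 fold change of 0.02 ± 0.14.

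Of the other members of this group, Hnrnpab was at 48.3 to 51.6 CPM in WT and 39.5 to 46.8 CPM in HSALR, with a log2 fold change of -0.22 ± 0.12 and an adjusted p of 0.240. Hnrnpa0, which has no introns, had a log2 fold change of 0.13 ± 0.16. Hnrnpdl, a paralog of Hnrnpd that lies beside it on chromosome 5, was at 46.7 to 47.8 CPM in WT and at 45.8, 66.4 and 48.7 CPM in HSALR, where replicate 2 stood above the rest (0.19 ± 0.16, adjusted p = 0.437).

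Proteins of the F/H group bind runs of G through quasi-RNA recognition motifs. None of the 4 genes was called. Hnrnph1, whose product is the hnRNP H named above, was at 59.5, 57.1 and 58.6 CPM in WT and 47.0, 55.0 and 46.4 CPM in HSALR, apart but with a log2 fold change of -0.24 ± 0.12 and an adjusted p of 0.218. Hnrnph2 had -0.22 ± 0.13, Hnrnph3 -0.24 ± 0.28 and Hnrnpf 0.17 ± 0.13. Hnrnpf was at 69.1 CPM in HSALR replicate 1 and at 52.3 to 57.0 CPM in all other libraries.

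Of the other hnRNP genes, Hnrnpul2 came nearest to the threshold. It belongs with Hnrnpu and Hnrnpul1 to the group of scaffold attachment factors that bind chromatin as well as RNA. Hnrnpul2 was at 43.1, 36.6 and 34.6 CPM in WT and 36.0, 26.6 and 29.7 CPM in HSALR, with overlapping groups, a log2 fold change of -0.31 ± 0.15 and an adjusted p of 0.198. Hnrnpu had -0.25 ± 0.14 and Hnrnpul1 -0.24 ± 0.13, and all 3 genes of the group were negative without a call. Hnrnpm and Hnrnpr had -0.24 ± 0.13 and -0.11 ± 0.13. Hnrnpc, whose product packages nascent transcripts as a tetramer and binds runs of U, had -0.18 ± 0.14.

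Hnrnpl, whose product binds CA repeats, gave the most precise comparison of all members, at 44.1, 45.0 and 45.2 CPM in WT and 46.3, 46.1 and 45.6 CPM in HSALR. The groups were apart, but the log2 fold change was 0.04 ± 0.11 and the 95% interval of the fold ran from 0.86 to 1.23. Its paralog Hnrnpll, known for splicing of CD45 in lymphocytes, had -0.25 ± 0.17. Hnrnpk was at 95.6 to 101.4 CPM in WT and 113.4, 112.4 and 100.2 CPM in HSALR, with overlap and a log2 fold change of 0.13 ± 0.12.

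Among the SR genes the lowest p belonged to Srsf2. Its product, SC35, marks nuclear speckles, the sites where splicing factors are stored. Srsf2 was at 36.1, 40.5 and 37.4 CPM in WT and 43.8, 47.1 and 45.2 CPM in HSALR, every HSALR library above every WT library. The log2 fold change was 0.25 ± 0.12 with an adjusted p of 0.176 in edgeR, and the 95% interval of the fold ran from 0.99 to 1.44. On TPM, where the median of all genes tested was -0.46, its log2 fold change was -0.35, above that median. In protein-coding TPM the libraries were at 52.8, 62.1 and 51.1 in WT and 76.2, 62.5 and 64.6 in HSALR.

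**Figure D4:**
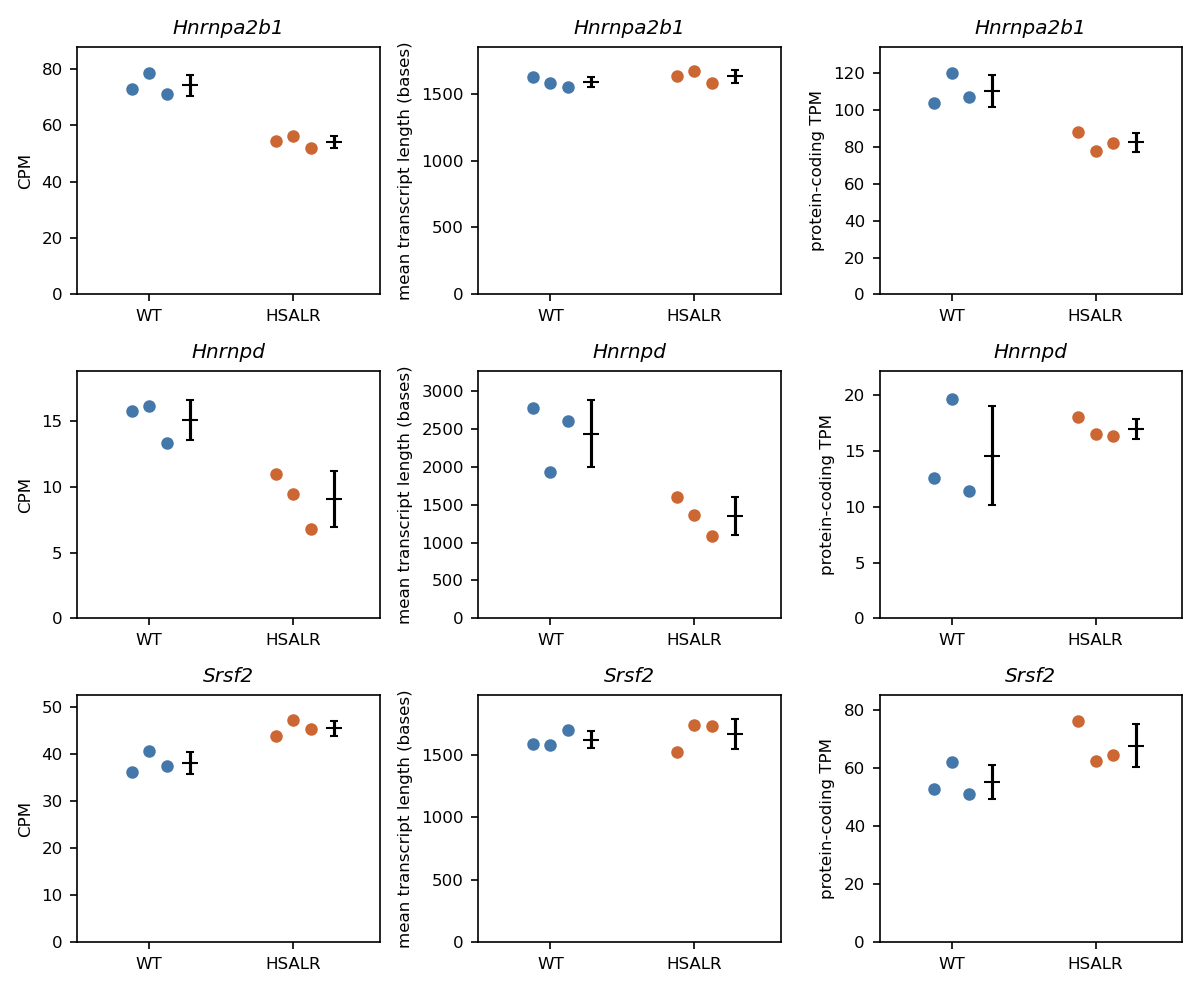
CPM (left), abundance-weighted mean transcript length in bases (middle) and protein-coding TPM (right) of Hnrnpa2b1, Hnrnpd and Srsf2, all axes starting at 0, with 1 point per library and the mean ± SD of 3. Hnrnpa2b1 is lower in HSALR on both level scales at nearly equal length, while for Hnrnpd CPM and length are both lower and the length-corrected level overlaps.

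The other SR genes with 1 RNA recognition motif were Srsf3, which also promotes mRNA export, at 0.14 ± 0.13 on the log2 scale, Srsf7, its relative with a zinc knuckle, at -0.09 ± 0.15, Srsf10, known as a repressor in its dephosphorylated form, at -0.14 ± 0.15, and Srsf11 at -0.21 ± 0.13. Srsf3 stood at 53.7 CPM in HSALR replicate 1 and at 42.6 to 47.2 CPM in the other libraries. Of the SR genes with a pair of RNA-binding domains, Srsf1, the founding member of the family, was at 36.6 to 40.8 CPM in WT and 31.4 to 38.6 CPM in HSALR, a log2 fold change of -0.20 ± 0.13. Srsf6 was at 34.9, 40.7 and 40.7 CPM in WT and 33.3, 34.8 and 30.3 CPM in HSALR, apart by a small gap, at -0.24 ± 0.13 with an adjusted p of 0.228. Srsf5 had 0.12 ± 0.12, Srsf4 0.01 ± 0.19 and Srsf9 -0.03 ± 0.20. The fold intervals of these 5 genes with a pair of such domains lay between 0.69 and 1.37.

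Since SR and hnRNP genes are known for transcripts that are not translated, the mix of transcripts was read from the mean length. Among the transcripts that the files list, GENCODE M39 marks at least 1 as subject to nonsense-mediated decay for 9 of the 10 SR genes and 10 of the 20 hnRNP genes. The share was 26.1% of all genes tested and 28.9% of the protein-coding genes among them. GENCODE M39 marks a retained intron transcript for 8 and 14, against 54.0% of all genes and 59.0% of the protein-coding genes tested. The members also had more listed transcripts, with a median of 7.5 against 5, and these shares are a description of the annotation with no test.

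Mean length could be tested with limma for 29 members, all but Hnrnpa0 with its single transcript. No member passed, and of 11337 genes tested 2 did (0.0176%). At an unadjusted p under 0.05 there were 2 members, Hnrnpd and Hnrnpu, beside 848 of the 11337 genes tested. In 3 members (Hnrnpd, Hnrnpu and Hnrnpul2) the lengths of the groups did not overlap, beside 12.8% of all genes tested. The median length difference of the members was -0.03 on the log2 scale, against -0.01 over all genes. Among the 29 members Hnrnpd had the largest, at -0.85 ± 0.21 with an unadjusted p of 0.0094 and an adjusted p of 0.455 in limma, and all other members lay between -0.15 and 0.25.

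The listed transcripts of Hnrnpd run in GENCODE M39 from 425 to 7043 bases, with the next longest at 2233, and 4 of the 11 are marked for nonsense-mediated decay and 1 as a retained intron. The mean length of WT replicates 1 and 3 lay above 2233 bases, and that of WT replicate 2 and of all HSALR libraries below it. Which transcripts or exons differed was not tested, since the values used here are per gene.

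Hnrnpu had a mean length of 3661, 3655 and 3559 bases in WT and 3521, 3296 and 3311 bases in HSALR, a difference of -0.10 ± 0.03 on the log2 scale with an adjusted p of 0.550 in limma. Its longest listed transcript has 7640 bases, and 6 of the others are marked for decay or a retained intron. Hnrnph3 went the other way without a call, at 1393, 1337 and 1637 bases in WT and 1609, 1900 and 1682 bases in HSALR (0.25 ± 0.11, adjusted p = 0.724). Hnrnpa2b1 was at 1550 to 1624 bases in WT and 1580 to 1672 bases in HSALR, and the SR genes lay between -0.12 and 0.05.

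Genes that act on or beside the members were followed on 5 lists, whose counts stand beside 11.8% called among all genes tested (7.48% lower and 4.28% higher). Among 16 kinases, phosphatases and importers of SR proteins, 3 fell and none rose (18.8% called), with a median log2 fold change of -0.18. Ppp1cb, a catalytic subunit of protein phosphatase 1, went from 182, 177 and 180 CPM in WT to 94.0, 119 and 76.2 CPM in HSALR (-0.90 ± 0.17, adjusted p = 0.0158). Dyrk1a, a kinase of splicing factors among other targets, fell by 0.80 on the log2 scale (± 0.16, adjusted p = 0.0167). Srpk1, the kinase that readies SR proteins for import into the nucleus, went from 19.5, 18.9 and 20.7 CPM to 12.8, 14.9 and 14.7 CPM (-0.48 ± 0.13, adjusted p = 0.0484). Of the 20 alternative fits, Ppp1cb was called in 16, Dyrk1a in 14 and Srpk1 in 3, with an adjusted p of up to 0.386 in the others.

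Of 36 tested SR-related proteins 2 fell and none rose (5.56%), with a median of -0.25. Of these 36 proteins 28 were negative, beside 6396 of all 13576 genes tested. The 2 that fell are given next. They were Srrm2, a large scaffold of nuclear speckles, at 213, 201 and 230 CPM in WT and 131, 150 and 162 CPM in HSALR (-0.54 ± 0.14, adjusted p = 0.0417), and its partner Srrm1 (-0.65 ± 0.17, adjusted p = 0.0423). Each was called in 8 of the 20 alternatives, with adjusted p up to 0.259 and 0.251. Of 28 tested hnRNP relatives under other symbols 5 fell and 1 rose (21.4%), with a median of -0.06. Msi2, an RNA-binding regulator of translation, went from 108, 110 and 104 CPM to 43.9, 70.2 and 46.6 CPM (-1.0 ± 0.19, adjusted p = 0.0145). Pcbp2, a relative of hnRNP K also called hnRNP E2, fell by 0.70 on the log2 scale (± 0.14, adjusted p = 0.0167), and Elavl1, which encodes HuR and binds AU-rich elements as AUF1 does, fell by 0.59 (± 0.13, adjusted p = 0.0227). Msi2 and Pcbp2 were each called in 14 of the 20 alternatives and Elavl1 in 11.

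Of the 20 nonsense-mediated decay factors 4 fell and 1 rose (25.0%), with a median of -0.16. Upf2, a core factor of the pathway, went from 22.8, 22.7 and 24.7 CPM in WT to 12.7, 13.5 and 11.4 CPM in HSALR (-0.90 ± 0.13, adjusted p = 0.00669), and it was called in all 20 alternative fits. Smg1, the kinase of Upf1, fell by 0.47 (± 0.12, adjusted p = 0.0393) and was called in 8 of the 20, with adjusted p up to 0.270. Of 42 core spliceosome proteins 3 fell and 2 rose (11.9%), with a median of 0.07. Prpf4, a protein of the tri-snRNP, fell by 0.81 (± 0.13, adjusted p = 0.0101) and Prpf8, which lies at the catalytic centre, by 0.64 (± 0.13, adjusted p = 0.0194), while Snrpe, an Sm ring protein, rose from 15.9, 16.7 and 15.02 CPM to 31.6, 24.8 and 21.7 CPM (0.71 ± 0.16, adjusted p = 0.0271). Prpf4 was called in 16 of the 20 alternatives, Prpf8 in 12 and Snrpe in 11, and the log2 fold change of Snrpe ranged from 0.12 to 0.82 over the 20.

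**Figure D5:**
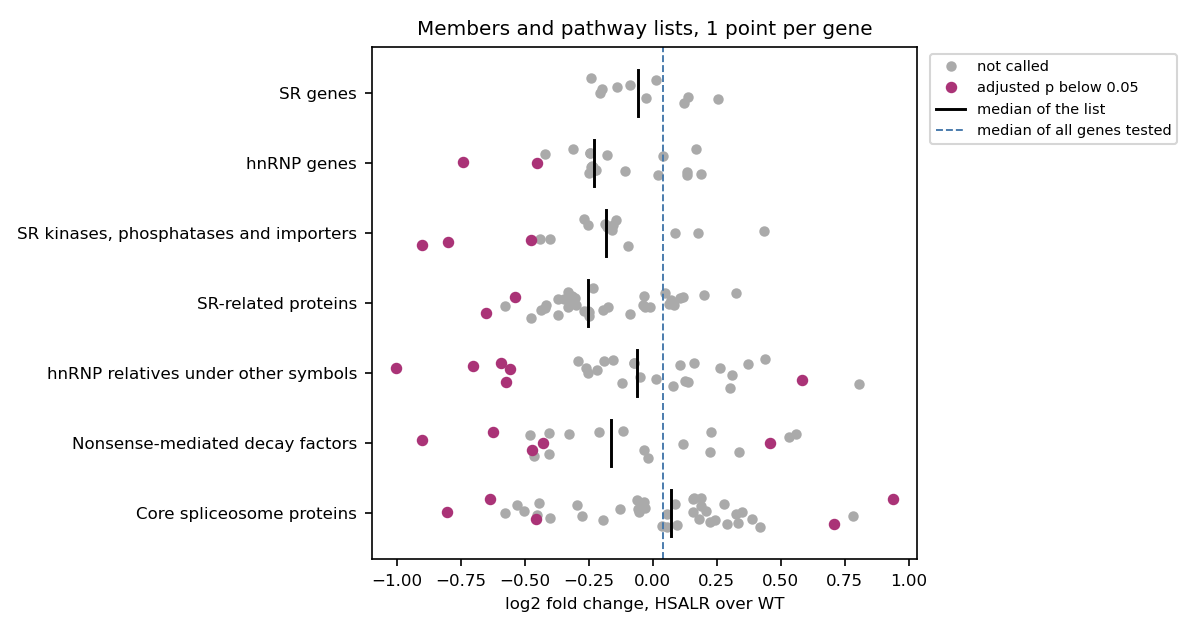
Log2 fold change (HSALR over WT) of the SR genes, the hnRNP genes and the genes of 5 related lists, 1 point per gene, with called genes in purple, the median of each list as a black bar and the median of all genes tested as a dashed line at 0.04. The SR genes lie between -0.24 and 0.25 with none called, and each related list has called genes, from 5.56% of the SR-related proteins to 25.0% of the nonsense-mediated decay factors, beside 11.8% of all genes tested.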

How the data were processed

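Quadriceps RNA of 3 WT and 3 HSALR samples was extracted with TRIzol, and stranded total RNA libraries were made from 0.5 µg, per the labels. The authors deposited expected counts (RSEM's estimated reads per gene, with shared reads divided), TPM and lengths, in bases on a linear scale and abundance-weighted, per the file headers. FPKM, also deposited by the authors and scaled for length and library size, was not used. Per the submitters' processing notes, reads were handled with Bowtie2 and RSEM 1.3.1 on GRCm39. The release of the annotation was not given there. Since the study's methods cover only its small RNA libraries, they did not set the test.

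Symbols came from GENCODE M39, matched by gene identifier for 53400 of 53947 genes (98.99%). Rounded expected counts were filtered with filterByExpr, scaled by TMM and tested with edgeR 4.0.16 (robust quasi-likelihood F test, group as the only term, Benjamini-Hochberg adjustment over all 13576 genes, called under 0.05). Log2 mean lengths of 11337 genes with 2 or more transcripts were tested with limma 3.58.1 in R 4.3.3. Alternatives were limma-voom, DESeq2 1.42.0, limma on log2 TPM (pseudocount 0.1), other scalings and filters, and fits without each library. The fits were tested on simulated data. The common dispersion, a summary over the genes tested, was 0.0535, and the quasi-likelihood test also estimated a spread for each gene. Counting limits (3 counts) cover counting error only.

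The members and lists were chosen with earlier results of these data known. All 30 members are named, with values per library for called members, the highest and lowest of each family by WT TPM, the 3 uncalled members and the 3 lengths with the lowest p, and others beside them for context after their values were seen, and from each list up to 3 called genes with the lowest p, of which 1 is not reported here. Libraries of a group differed beyond sampling noise (lowest chi-square over its degrees of freedom, 9.78).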

Additional observations from a re-analysis of the deposited data

How the results depend on the processing

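The number of SR genes called was 0 under all 20 alternatives, and the number of members with a called length difference was 0 under all 10. The number of hnRNP genes called was 2 with all libraries and 0 to 3 when each library was left out. It was 1 with no filter, with a mean of at least 50 counts and with the length trend removed, and 0 with upper-quartile factors, the replicate block, limma-trend on log2(TPM + 0.1), an effective length offset and library totals without factors. The last 2 settings, and the length trend removed without HSALR replicate 1 (3 called), were added after seeing the data. Over all genes the calls numbered 1597 (36.4% of them higher), 799 with the replicate block, 941 with the length trend removed, 519 on TPM (9.63% higher), 742 with the effective length offset, 935 with the share of 7SL and 7SK in the model, 1509 with upper-quartile factors (48.2% higher), 1253 with library totals without factors (65% higher) and 166 to 3294 when each library was left out. Deviations from the group mean correlated at r = 0.000517, -0.0949 and 0.228 between same-numbered libraries and at -0.168 to 0.16 between the others. With 3 libraries per group these values cannot settle whether the numbers pair the samples. The labels state no pairing, and the replicate block is given as an alternative only.

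Of the 30 members 17 had a negative log2 fold change under every alternative. None had a positive one under every alternative, as all 30 were negative on TPM. The share of all genes that kept their sign was not counted, so no trend is read from these numbers. The other 13 changed sign under at least 1 alternative, never with a call. On TPM, where the median over all genes was -0.46, the 10 positive members were negative: Hnrnpa0 (-0.42), Hnrnpa1 (-0.48), Hnrnpdl (-0.37), Hnrnpf (-0.42), Hnrnpk (-0.56), Hnrnpl (-0.47), Srsf2 (-0.35), Srsf3 (-0.42), Srsf4 (-0.47) and Srsf5 (-0.36). With the share of 7SL and 7SK in the model Hnrnpa0 was at -0.070, Hnrnpa1 at -0.017, Hnrnpf at -0.026, Srsf4 at -0.042 and Srsf9 at 0.032. With the effective length offset Hnrnpd was at 0.13, Hnrnpk at -0.017, Srsf7 at 0.0099 and Srsf9 at 0.091. With the length trend removed Hnrnpa1 was at -0.035 and Hnrnpl at -0.0061, and without HSALR replicate 1 as well Hnrnpa1 was at -0.096, Hnrnpf at -0.017, Hnrnpk at -0.026 and Hnrnpl at -0.029. Srsf4 was at -0.0017 with no filter and at -0.00067 in DESeq2, and Srsf9 at 0.029 with upper-quartile factors, 0.023 with a mean of at least 50 counts and 0.067 with library totals without factors. When each library was left out, Hnrnpa1 ranged from -0.052 to 0.12, Hnrnpdl from -0.0010 to 0.30, Srsf4 from -0.12 to 0.14, Srsf7 from -0.19 to 0.040 and Srsf9 from -0.125 to 0.13.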

Other observations

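The paralogs Hnrnpd and Hnrnpdl, neighbours on chromosome 5, were set against each other after their values were seen. The CPM of Hnrnpd over that of Hnrnpdl was 0.338, 0.337 and 0.285 in WT and 0.239, 0.142 and 0.139 in HSALR, so every HSALR library lay below every WT library. The ratio was not tested. It is a ratio of reads, not corrected for length.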
